A study of Mus musculus with 96 samples.

Results

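The data described here are the peaks that lie on either side of the Mutyh gene on mouse chromosome 4. All consensus peaks of chromosome 4 with a start within 10 Mb of Mutyh (GRCm38) were taken from 6 peak tables, whatever their values. This gave 328 of 22815 peaks, with starts from chr4:106839579 to chr4:126753177. They were annotated to 193 genes. H3K4me3 gave 177 of these peaks in NeuN+ nuclei and 42 in NeuN- nuclei, H3K27me3 gave 48 and 43, and Suz12 gave 15 and 3.

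The study profiled the marks by chromatin immunoprecipitation and sequencing in hippocampal nuclei of wild-type (WT) mice, of mice lacking Mutyh (Mutyh-/-) or Ogg1 (Ogg1-/-) and of double knockout (DKO) mice lacking both genes, 4 genotypes in all. The mice were males of 6 months on a C57BL/6N background, and each library came from pooled hippocampi of 5 mice of a genotype. The DKO was bred by crossing the single knockouts, so that Mutyh-/- and DKO mice share the Mutyh allele, and Ogg1-/- and DKO mice share the Ogg1 allele. The strain in which each allele was made and the number of backcrosses are not given in the sources used here. Nuclei were sorted on NeuN, a neuronal nuclear protein, and there were 3 libraries per genotype, antibody and fraction, 72 in all. H3K4me3 peaks covered the promoters of 6 of 6 neuronal marker genes in the NeuN+ fraction and of 0 of 6 in the NeuN- fraction. Markers of non-neuronal cells were nearly absent from the NeuN- peaks, where 1 of 6 oligodendrocyte genes (Olig1) and no astrocyte, microglial or endothelial marker had a promoter peak. In the NeuN+ fraction 1 of 6 oligodendrocyte genes (Mbp) and 1 of 4 astrocyte genes (Slc1a3) had one, and no microglial or endothelial marker.

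Mutyh is a DNA glycosylase of base excision repair that removes adenine paired with oxidised guanine, and Ogg1 removes the oxidised guanine itself. A gene-targeted allele is inherited together with the stretch of chromosome around it, which can carry the sequence of the strain in which the allele was made for many generations of breeding. Animals that share the allele then also share this flank. H3K4me3 marks active promoters, whereas H3K27me3 is set by Polycomb repressive complex 2 (PRC2), of which Suz12 is a subunit, at silent developmental genes. A read-based signal at a peak depends on the chromatin and also on how well the sequence of the animal matches the reference genome. The question was whether peaks near Mutyh differ in the libraries that lack Mutyh, and whether this depends on the distance.

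The sequences on which the results turn are shown first, on the plus strand of GRCm38. The first comes from a tandem array 1.74 Mb from the Mutyh start and is the stretch common to 5 of the 6 peaks over that array. It holds 3 copies of the 18-base core of the repeat, in capitals. The line after it gives the 44-base consensus unit, again with the core in capitals. The third is a stretch of the Toe1 peak, the peak nearest to the Mutyh start. The stretch lies within Toe1, whereas the peak runs past the start of Toe1, a minus-strand gene, and ends before the Mutyh start. The last 2 are the promoter peaks of Ift25 and Maneal, which had the largest called changes of the Mutyh allele contrast, defined below, away from the array. CpG dinucleotides are in capitals in these 3, and bases of untranslated exons were left out.
chr4:118548274-118548429, tandem array near Tmem125: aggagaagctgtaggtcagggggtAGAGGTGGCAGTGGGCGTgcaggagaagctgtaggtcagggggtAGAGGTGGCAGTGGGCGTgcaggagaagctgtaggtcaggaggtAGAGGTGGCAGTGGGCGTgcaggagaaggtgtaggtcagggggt
consensus unit of the array: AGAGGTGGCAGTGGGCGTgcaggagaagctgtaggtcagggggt
chr4:116807234-116807467, Toe1: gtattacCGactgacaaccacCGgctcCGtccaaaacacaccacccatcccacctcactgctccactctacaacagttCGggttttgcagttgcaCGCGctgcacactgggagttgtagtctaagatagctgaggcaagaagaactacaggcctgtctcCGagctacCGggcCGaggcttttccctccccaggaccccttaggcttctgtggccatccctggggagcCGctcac
chr4:107253534-107253592, Ift25: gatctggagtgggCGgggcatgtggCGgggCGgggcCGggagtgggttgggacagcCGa
chr4:124862013-124862167, Maneal: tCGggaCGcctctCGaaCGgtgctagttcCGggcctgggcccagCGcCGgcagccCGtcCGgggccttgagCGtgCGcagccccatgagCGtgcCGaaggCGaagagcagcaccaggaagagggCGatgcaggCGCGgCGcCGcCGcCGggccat

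Values are given below as the signal in a peak of 401 bp, which is the number of reads divided by a factor of the library. Depth differed between tables. A NeuN+ library had 96023 to 548706 reads in peaks with H3K4me3, 23794 to 52344 with H3K27me3 and 6652 to 33035 with Suz12. A NeuN- library had 39320 to 120004, 19132 to 78250 and 11887 to 66148. The median member had 13 reads per library, and the median Suz12 NeuN- member had 2, so that small differences at weak peaks were not detectable at this depth. Fold changes and p-values come from limma on log2(value + 1), fitted over all peaks of a table. A peak was called when its unadjusted p was under 0.05 and its absolute log2 fold change over 0.5, and only called peaks are said to have risen or fallen. Of the 11 calls of the Mutyh allele contrast below, 5 were made whichever library was left out, 4 of them at the array described next and 1 at Maneal. The lowest adjusted p of a member in the 5 contrasts was 0.228 with limma, and 0.328 outside that array, so the calls rest on unadjusted p-values. Besides each knockout against WT, the 6 libraries that lack Mutyh (Mutyh-/- and DKO) were set against the 6 that carry it (WT and Ogg1-/-), which is called the Mutyh allele contrast. The Ogg1 allele contrast splits the same 12 libraries by Ogg1, which lies on another chromosome. p-values measure the spread between libraries of pooled animals.

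The clearest difference of the flank was at the tandem array, where signal was called lower in libraries lacking Mutyh with all 3 antibodies. The array covers chr4:118547064-118548737, 1674 bp with a GC content of 62.8%, and holds 34 copies of the core. The core occurred at no other place on chromosome 4. The array lies 2.14 kb upstream of the start of Tmem125, a minus-strand gene for a membrane protein, and 5.81 kb from Cfap57, a gene for a cilia protein. RefSeq places the non-coding RNA Gm40237 over it, whereas the authors' annotation calls the peaks distal intergenic. Only 6.21% of the array was soft-masked as a repeat in the reference, so a filter on masked bases would keep it. It carried 6 peaks, from 5 of the 6 tables, and only H3K27me3 NeuN+ had none.

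H3K27me3 in NeuN- nuclei, at chr4:118548132-118548532, gave 18.5, 6.63 and 16.1 in the 3 WT libraries. The Mutyh-/- libraries had 3.84, 2.11 and 2.31. The Ogg1-/- libraries had 28.9, 8.99 and 21.5, and all 3 DKO libraries were at 0. Every library lacking Mutyh was thus below every library carrying it. The means were 13.8 ± 6.29 in WT, 2.76 ± 0.947 in Mutyh-/- and 19.8 ± 10.1 in Ogg1-/- (SD, n = 3). In the Mutyh allele contrast the peak fell by 3.07 on the log2 scale (SE 0.802, adjusted p = 0.228, limma). The peak was singled out because its groups do not overlap, so these values describe it and do not test it. DKO was at least 14.1-fold lower than WT, taking 3 reads over the group of libraries as the floor. In such bulk libraries, fewer cells of a type and less mark per cell cannot be told apart. On the reads recovered from the values, edgeR gave an adjusted p of 0.000483 and DESeq2 one of 7.01e-06 for the Mutyh allele contrast, and over all alternatives it ran from 7.01e-06 to 0.999.

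H3K4me3 over the same sequence, at chr4:118548152-118548552, followed the same split in NeuN- nuclei. The WT libraries had 5.53, 11.0 and 8.27 and the Ogg1-/- libraries 6.93, 8.78 and 9.94. The Mutyh-/- libraries had 0, 0 and 1.63 and the DKO libraries 3.71, 1.43 and 0. Again the 6 libraries lacking Mutyh were below the 6 carrying it, with a log2 fold change of -2.39 (SE 0.769, adjusted p = 1.00, limma). This peak, too, was singled out because its groups do not overlap. In NeuN+ nuclei the peak at the same position fell by 2.20 (SE 0.819). There the groups overlapped, since WT had 12.9, 9.76 and 0 and Mutyh-/- had 2.18, 0 and 5.26, while Ogg1-/- had 23.8, 10.3 and 6.92 and DKO had 0, 0 and 0.758.

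Suz12 gave weaker signal at the array. In NeuN- nuclei, at chr4:118548029-118548429, WT had 5.60, 7.46 and 12.4, and DKO had 0 in all 3 libraries. Mutyh-/- had 0, 0.623 and 0. Ogg1-/- had 9.20, 0 and 0, so that libraries carrying Mutyh were also at 0 there. The fall was 2.03 (SE 0.736, adjusted p = 0.585, limma), and DKO was at least 8.55-fold lower than WT. In that table all 3 knockouts were called against WT, with log2 fold changes of -2.95 in Mutyh-/-, -2.06 in Ogg1-/- and -3.18 in DKO. In NeuN+ nuclei Suz12 had 5.36, 6.93 and 4.03 in WT, 3.28, 0 and 3.04 in Mutyh-/-, 9.91, 0 and 12.2 in Ogg1-/- and 0.850, 0 and 1.58 in DKO. This was not called (log2 fold change -1.47). The second Suz12 peak in NeuN- nuclei, at chr4:118548439-118548839, reaches past the end of the array and was not called (means 2.31 ± 3.08 in WT and 1.82 ± 1.80 in DKO, SD, n = 3, log2 fold change of the Mutyh allele contrast 0.16).

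Over the 6 peaks together, 291 reads came from libraries carrying Mutyh and 48 from libraries lacking it. By genotype these were 126 in WT, 165 in Ogg1-/-, 32 in Mutyh-/- and 16 in DKO. No read was found in 17 of 36 values of libraries lacking Mutyh, against 6 of 36 of libraries carrying it. Between the Ogg1 allele groups no peak of the array was called. The plot of the array peaks shows the means of WT and Ogg1-/- above those of Mutyh-/- and DKO in 5 of 6 panels.

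**Figure D1:**
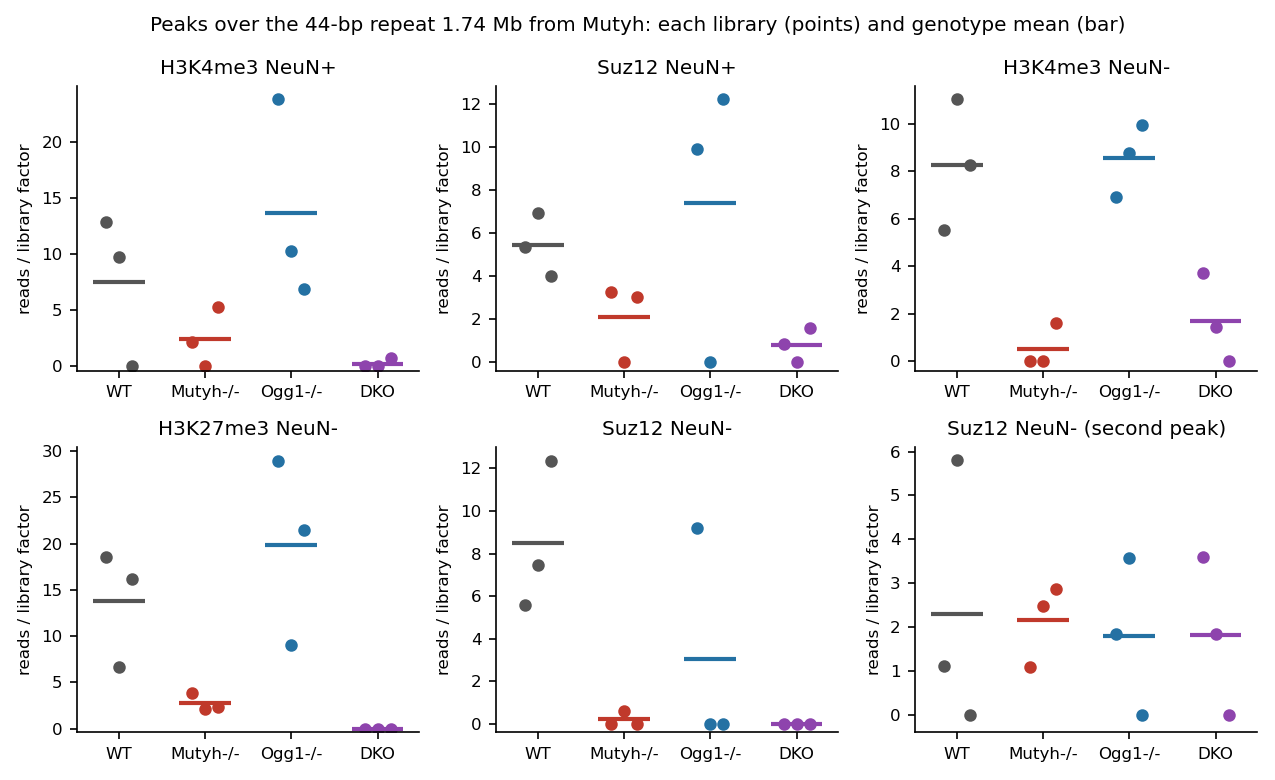
Signal of the 6 peaks over the tandem array 1.74 Mb from Mutyh, as reads divided by the library factor (vertical axis), by genotype. Points are the 3 libraries of a genotype and bars their means. In H3K27me3 and H3K4me3 NeuN- every Mutyh-/- and DKO library lies below every WT and Ogg1-/- library, and the second Suz12 NeuN- peak shows no such split.

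The difference was set against other loci found with several antibodies. Peaks of the 6 tables within 1000 bp of each other were joined, and 199 such loci had peaks in 4 or more tables. The summed signal of libraries lacking Mutyh over that of libraries carrying it, as a log2 ratio after adding 1, was -2.60 at the array, the lowest of the 199. The next lowest ratios were -0.83 and -0.76, the highest was 1.00 and the median was -0.02. The other 2 such loci of the flank were near 0, with 0.04 at Fhl3 and -0.15 at Tfap2e. The array was the 1 locus of the 199 with more than 1 peak whose groups did not overlap. It was singled out after its values had been seen, so this ranking is a description. A region also had to be found in at least 2 of 3 replicates to enter a table. As most reads of the array came from WT and Ogg1-/-, its peaks may have entered through these groups. Such a selection favours lower values in the other groups at weak peaks.

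The array is short-period sequence, which bears on how reads of 75 bases align. Of the 327 possible 75-base reads of the H3K27me3 NeuN- peak, 99 (30.3%) occur more than once on chromosome 4. Genome-wide, 22 peaks had at least 80% identity to themselves at a period of 10 to 100 bp. The 5 of them in the flank were all over this array, and their median log2 fold change was -2.20 in the Mutyh allele contrast and -0.45 in the Ogg1 allele contrast. The other 17 had medians of -0.10 and 0.05. In the Mutyh allele contrast they ran from -1.19 to 1.59, and 2 of the 17 were called, beside 1.78% of all peaks. Whether the number of repeat units differs between the animals, and its part in the result, was not tested.

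The peaks nearest to the array outside it were not called. The nearest, an H3K27me3 NeuN+ peak of Tmem125 2.89 kb away, had means of 4.91 ± 5.19 in WT, 2.75 ± 0.467 in Mutyh-/-, 2.37 ± 2.59 in Ogg1-/- and 6.87 ± 6.55 in DKO (SD, n = 3). Its log2 fold change in the Mutyh allele contrast was 0.60 (SE 0.744), and it was not called. The next peaks on either side were those of 2610528J11Rik, Tie1 (an endothelial receptor), Cfap57 and Ebna1bp2, 28.4 to 72.0 kb away. Their log2 fold changes lay between -0.22 and 0.72, and none was called.

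At the Mutyh gene itself (chr4:116807636-116819439, plus strand), no peak was annotated to Mutyh. Mutyh stands head to head with Toe1, which encodes a nuclease that trims RNA ends, and their shared promoter carried an H3K4me3 peak in NeuN+ nuclei at chr4:116807234-116807634, ending 2 bp before the Mutyh start. Its values were 38.6, 11.7 and 10.8 in WT and 15.3, 17.5 and 31.5 in Mutyh-/-. They were 17.9, 15.4 and 33.1 in Ogg1-/- and 15.8, 20.1 and 19.7 in DKO. The groups overlapped, and the Mutyh allele contrast was 0.03 (SE 0.360). The peak lies before the gene and so does not test the deletion.

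None of the 27 peaks within 500 kb of the Mutyh start had an unadjusted p under 0.05 in the Mutyh allele contrast. Over all peaks 1.78% were called in that contrast, so a count of none among 27 does not set these peaks apart. The 22 H3K4me3 NeuN+ peaks among them had log2 fold changes from -0.70 to 0.31. The lowest was at Hectd3, a ubiquitin ligase gene 188 kb away, with 51.5, 24.4 and 44.2 in WT and 24.0, 18.4 and 35.0 in Mutyh-/-, 28.6, 39.0 and 35.4 in Ogg1-/- and 4.51, 50.7 and 27.3 in DKO, and it was not called. Nasp, which encodes a histone chaperone, differed by -0.11 and Prdx1, a peroxiredoxin gene, by -0.01. Rnf220, a ubiquitin ligase gene at the edge of this interval, had peaks in 3 tables, all of NeuN+ nuclei, with log2 fold changes of -0.02 (H3K4me3), 0.07 (H3K27me3) and -0.05 (Suz12). Against WT alone, 1 of the 27 was called, the H3K4me3 NeuN+ peak of C530005A16Rik in DKO. Over all peaks 1.99% were called for Mutyh-/-, 2.30% for Ogg1-/- and 2.10% for DKO. The C530005A16Rik peak is thus no more than these shares would give. It fell by 1.63, with values of 16.7, 24.4 and 36.6 in WT and of 0, 29.0 and 18.2 in DKO. The 0 was in DKO replicate 1, the library with the fewest reads of that table, and without it the log2 fold change was -0.10 and the peak was not called.

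**Figure D2:**
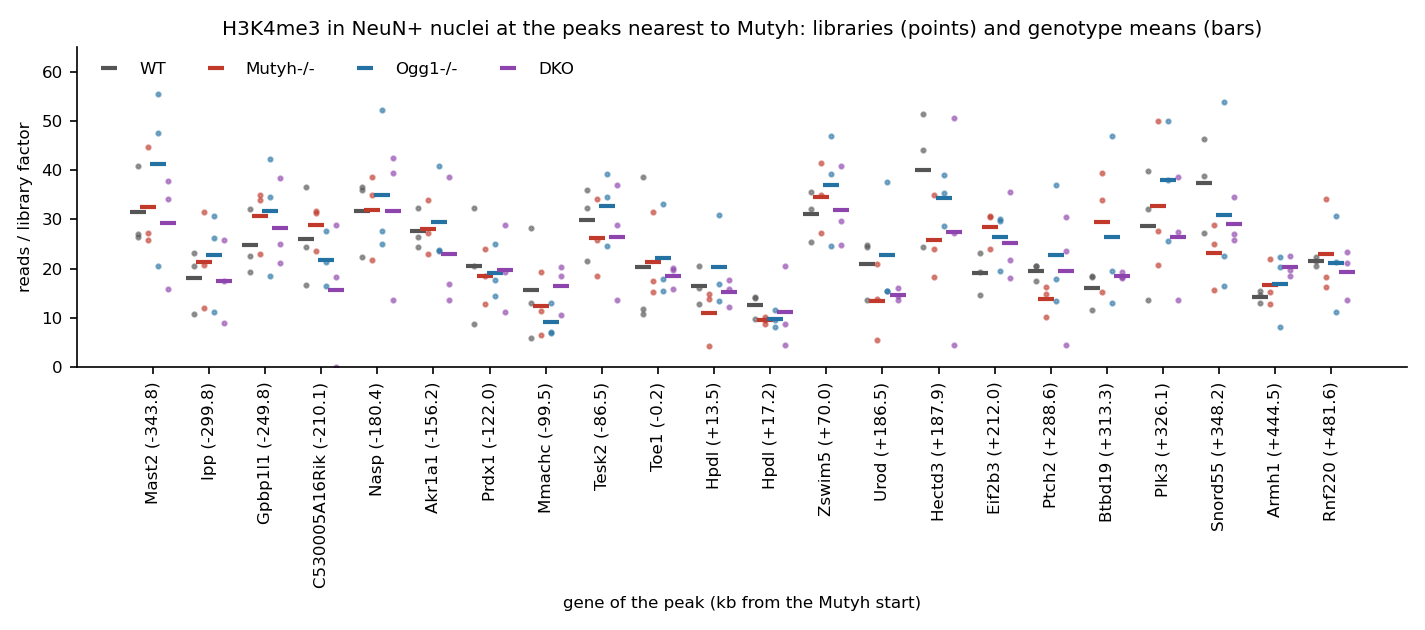
H3K4me3 in NeuN+ nuclei at the 22 peaks within 500 kb of the Mutyh start, as reads divided by the library factor (vertical axis). Peaks are in order of position with their distance in kb, points are libraries and bars genotype means. The libraries lacking Mutyh overlap those carrying it at each peak shown, Toe1 at the Mutyh start included.

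Across the flank, each contrast called a somewhat larger share of members than of all peaks, though not under every alternative given below. Called members were 9 for Mutyh-/- (2.74%, against 1.99% of all peaks), 10 for Ogg1-/- (3.05% against 2.30%) and 12 for DKO (3.66% against 2.10%). The Mutyh allele contrast called 11 (3.35% against 1.78%), of which 10 were lower and 1 was higher in libraries lacking Mutyh. Among all peaks the calls were 1.19% lower and 0.583% higher, that is 67.2% lower. The Ogg1 allele contrast called 9 (2.74% against 1.90%), with 4 lower (0.539% of all peaks) and 5 higher (1.36%).
TMM scaling also gave 11 Mutyh allele calls, 9 lower and 2 higher, which need not be the same peaks. It was 13 and 3 with edgeR and 11 and 4 with DESeq2, while 55.5%, 49.3% and 50.7% of the calls over all peaks were lower under these 3 settings. The share of members called was 3.354% with TMM factors, 4.878% with edgeR and 4.573% with DESeq2. Over all peaks it was 3.283%, 2.845% and 3.322%, so with TMM factors the 2 shares were close. Of the 11 calls, 4 were peaks of the array, and without the array 7 of 322 members (2.17%) were called, 6 of them lower. No member had an adjusted p under 0.05 with limma, against 1 of 22815 peaks (0.00438%), while 11 members had an unadjusted p under 0.05 and edgeR and DESeq2 each gave 1 adjusted call, the H3K27me3 NeuN- peak of the array. The groups lacking and carrying Mutyh did not overlap at 2 members, both over the array, and at 17 peaks (0.0745%) of the 6 tables. For the Ogg1 allele they did not overlap at 0 members and at 18 peaks (0.0789%). The interaction of the alleles had an unadjusted p under 0.05 at 9 of 328 members and an adjusted p under 0.05 at none (limma, lowest adjusted p = 0.709). All 9 also met the definition of a call, 2.74% of members against 2.04% of all peaks. Over all peaks, 4 had an adjusted p under 0.05 in the interaction (limma).

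By table, the members called for Mutyh-/- against WT were 2 in H3K4me3 NeuN+ (background 0.911%), 2 in H3K27me3 NeuN+ (3.78%), 0 in Suz12 NeuN+ (5.16%), 4 in H3K4me3 NeuN- (2.94%), 0 in H3K27me3 NeuN- (2.00%) and 1 in Suz12 NeuN- (3.85%). For Ogg1-/- they were 3 (0.966%), 3 (3.82%), 1 (3.74%), 0 (3.36%), 2 (4.18%) and 1 (11.2%) in the same order. For DKO they were 4 (1.46%), 1 (3.36%), 1 (2.58%), 2 (2.29%), 2 (2.30%) and 2 (6.73%). In the Mutyh allele contrast they were 3 (1.24%), 2 (3.53%), 0 (1.55%), 2 (1.50%), 3 (1.65%) and 1 (4.49%). The H3K27me3 NeuN- members had a median log2 fold change of -0.35 in that contrast, beside 0.05 over all peaks of the table. In H3K4me3 NeuN+ the median was -0.10, beside -0.09 over all peaks.

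By distance, the Mutyh allele contrast did not have its highest share called next to Mutyh. In the Mutyh allele contrast, 0 of 50 peaks within 1 Mb were called, 5 of 81 (6.17%) between 1 and 3 Mb, 1 of 23 (4.35%) between 3 and 5 Mb and 5 of 174 (2.87%) between 5 and 10 Mb. On the rest of chromosome 4, 27 of 1470 (1.84%) were called. With shares this low, 0 of 50 peaks cannot set the nearest bin apart from the rest. All 5 calls between 1 and 3 Mb were lower in libraries lacking Mutyh, and 4 of them were peaks of the array. The fifth was the H3K4me3 NeuN+ peak of Efcab14, 1.07 Mb before Mutyh, with means of 34.6 ± 6.44 in WT and 45.2 ± 6.27 in Ogg1-/- and of 23.5 ± 8.74 in Mutyh-/- and 28.5 ± 7.44 in DKO (SD, n = 3). The Ogg1 allele contrast called 1 of 50, 4 of 81, 1 of 23 and 3 of 174 peaks in these bins, beside 1.90% of all peaks. Its count was also largest at 1 to 3 Mb. Against WT, peaks within 1 Mb were called in each knockout. These included Tmem275 in Mutyh-/-, Dmbx1 in Ogg1-/- and C530005A16Rik and Dmbx1 in DKO. The median absolute log2 fold change of the Mutyh allele contrast was 0.23 within 1 Mb, 0.28 at 1 to 3 Mb, 0.27 at 3 to 5 Mb and 0.24 at 5 to 10 Mb, beside 0.28 on the rest of the chromosome and 0.26 over all peaks. These medians pool tables whose mix differs between the bins, and H3K4me3 NeuN+, the table with the smallest changes, gave 35 of the 50 peaks within 1 Mb and 36 of the 81 at 1 to 3 Mb. Within that table the median was 0.21 within 1 Mb and 0.20, 0.17 and 0.18 in the farther bins, beside 0.19 over all its peaks. In H3K4me3 NeuN- it was 0.59 over the 4 peaks within 1 Mb and 0.51, 0.13 and 0.30 farther out, beside 0.34 over all its peaks. No test was made of these medians.

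**Figure D3:**
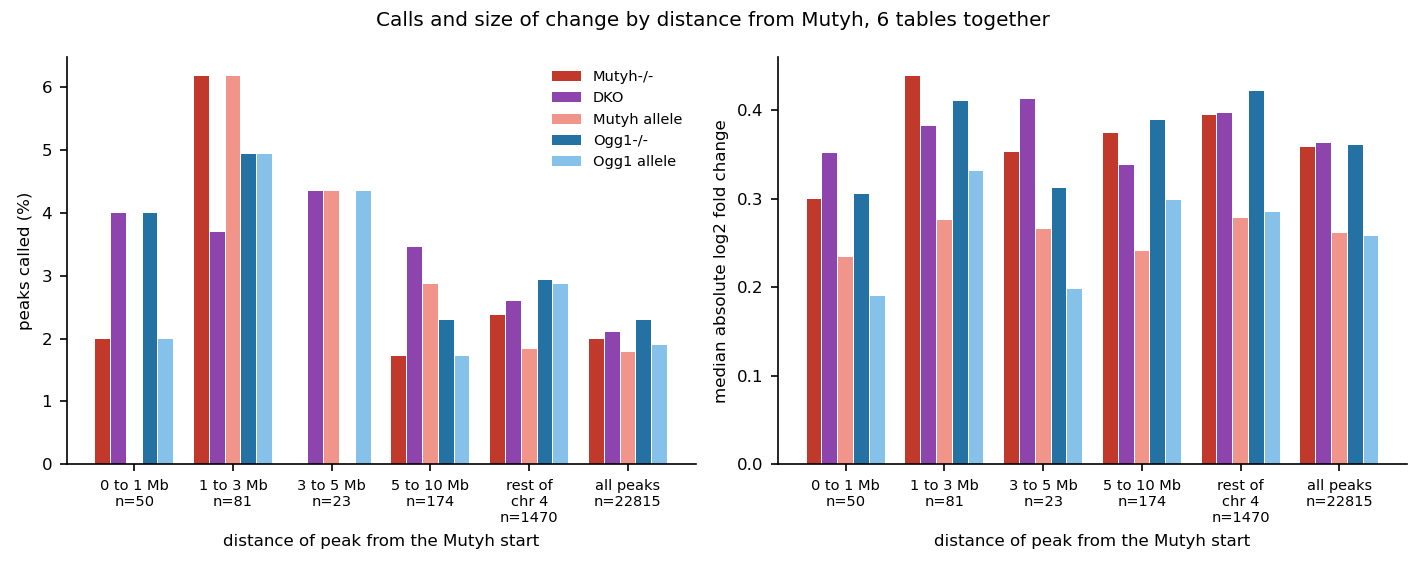
Share of peaks called (left, %) and median absolute log2 fold change (right) by distance from the Mutyh start, for 5 contrasts, with the 6 tables together. No peak within 1 Mb was called in the Mutyh allele contrast, and the 6.17% at 1 to 3 Mb holds the 4 called array peaks.

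**Figure D4:**
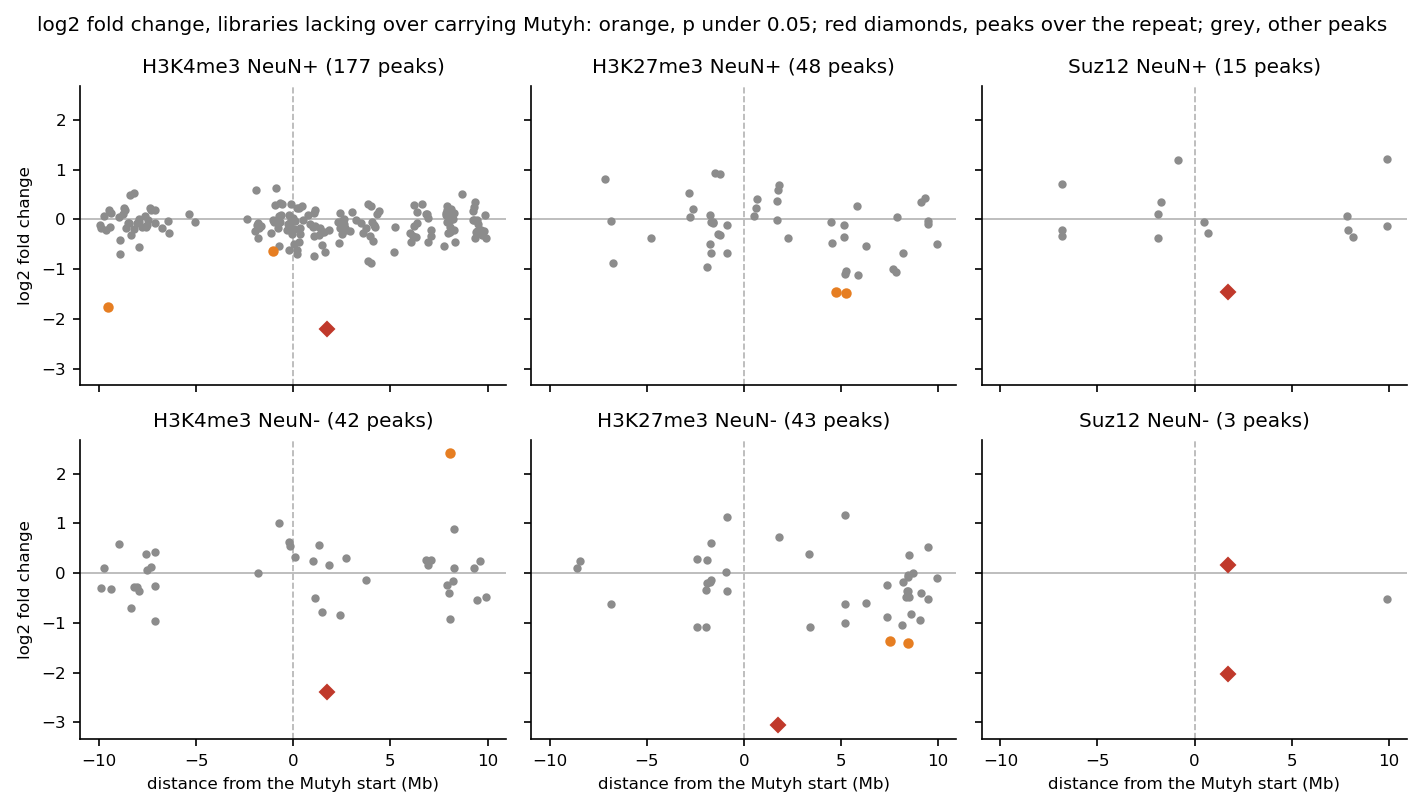
log2 fold change of libraries lacking over libraries carrying Mutyh (vertical axis) against distance from the Mutyh start in Mb (horizontal axis), 1 panel per table. Orange points have an unadjusted p under 0.05, red diamonds are the 6 peaks over the tandem array and grey points the other peaks. Most members lie between -1 and 1 at all distances, and the array peaks lie between -3.07 and 0.16.

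The remaining calls of the Mutyh allele contrast were far from the gene or at weak peaks. H3K4me3 in NeuN+ nuclei at the promoter of Ift25, an intraflagellar transport gene 9.55 Mb before Mutyh, had 15.4, 13.7 and 10.8 in WT and 5.45, 0 and 8.76 in Mutyh-/-. It had 8.33, 8.21 and 14.6 in Ogg1-/- and 0, 4.02 and 6.82 in DKO. It fell by 1.76 (SE 0.655, adjusted p = 1.00, limma), and 1 Mutyh-/- library was above 2 Ogg1-/- libraries. Maneal, a gene of the glycosidase family 8.05 Mb after Mutyh, gave the 1 call in the other direction. Its H3K4me3 NeuN- peak had 6.91, 0 and 0 in WT, 2.97, 0 and 4.26 in Ogg1-/-, 6.66, 13.0 and 8.13 in Mutyh-/- and 19.5, 7.86 and 20.1 in DKO. It rose by 2.41 (SE 0.760, adjusted p = 1.00, limma), with 1 WT library above the lowest Mutyh-/- library. At Gm12887, 2 H3K27me3 NeuN+ peaks were called with log2 fold changes of -1.45 and -1.48. Their genotype means were between 0 and 6.43, and the DKO libraries of the first were all at 0. The last 2 calls, H3K27me3 NeuN- peaks in introns near 1700057H15Rik and Zc3h12a, a gene for a ribonuclease, had means of at most 5.70.

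Against WT, the lowest p-values of the tables lay at the array and at single genes spread over the flank. Cited4, a transcriptional co-activator gene, had H3K4me3 NeuN+ values of 21.9, 25.4 and 37.7 in WT and of 0, 16.1 and 12.1 in DKO, where it fell by 2.23 (SE 0.703). Without DKO replicate 1 the log2 fold change was -0.93 and the peak was not called. Tmem275 rose by 1.44 in Mutyh-/- (means 7.80 ± 5.77 in WT and 19.7 ± 5.68 in Mutyh-/-, SD, n = 3), and Cyp4b1, a cytochrome P450 gene, rose by 1.46 in Ogg1-/- (8.85 ± 3.36 and 25.2 ± 5.32). St3gal3, a sialyltransferase gene 1.33 Mb after Mutyh, had 4.15, 4.73 and 3.55 in the WT libraries of H3K4me3 NeuN-, below 15.2, 21.6 and 9.75 in Mutyh-/-, and was called there with a rise of 1.63 (SE 0.771). It was picked after its values had been seen. Its Ogg1-/- libraries had 14.8, 9.58 and 9.94 and its DKO libraries 6.50, 8.58 and 7.82, so that all 9 knockout libraries were above WT. The share of all peaks with such a split was not counted. Over all peaks of H3K4me3 NeuN-, the median log2 fold change against WT was 0.22 in Mutyh-/-, 0.25 in Ogg1-/- and 0.054 in DKO. The Mutyh-/- call of St3gal3 held in 7 of 12 fits with a library left out.

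In the H3K27me3 and Suz12 tables, Foxd2os, a non-coding RNA beside the forkhead gene Foxd2, had an H3K27me3 NeuN+ peak that fell by 1.79 in Mutyh-/- (SE 0.824). Pdzk1ip1 rose by 1.94 in Ogg1-/- and Skint5 by 1.90 in DKO in the same table. Dmbx1, a homeobox gene of brain development 0.868 Mb before Mutyh, had Suz12 NeuN+ values of 9.39, 27.7 and 26.8 in WT, 3.28, 24.9 and 31.4 in Mutyh-/- and 0, 9.42 and 0 in Ogg1-/-. It fell by 3.21 in Ogg1-/- (SE 1.11, adjusted p = 0.328, limma) and was not called in Mutyh-/-. DKO, which shares the Ogg1 allele, had a mean of 15.7 ± 9.36 at this peak, beside 21.3 ± 10.3 in WT (SD, n = 3). The peak was not called in DKO. Tfap2e, a transcription factor gene 9.92 Mb away, rose by 2.58 in DKO in Suz12 NeuN+. In H3K27me3 NeuN-, the peak of 2610028E06Rik rose by 2.45 in Ogg1-/-, and the peak of Gm12830 was at 0 in all 3 Mutyh-/- libraries with 5.29, 3.32 and 2.31 in WT (log2 fold change -2.16, SE 1.16, not called). Rspo1 (Suz12 NeuN+, -1.51 in Mutyh-/-) and Cmpk1 (H3K4me3 NeuN-, 1.95 in Ogg1-/-) had the lowest p of their tables and were not called.

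Genes of the flank were also counted by role, over the 3 knockouts against WT and both allele contrasts. Among all peaks, 1.99% were called for Mutyh-/-, 2.30% for Ogg1-/-, 2.10% for DKO, 1.78% for the Mutyh allele and 1.90% for the Ogg1 allele, and the counts of each list are to be read beside these shares. Of 13 developmental transcription factor genes, 11 had peaks, 31 in all, and none of these peaks was called in Mutyh-/-, DKO or either allele contrast. In Ogg1-/- 2 of 31 were called (2.30% of all peaks), H3K4me3 NeuN+ at Glis1, a zinc finger gene (log2 fold change 1.14, SE 0.448), and H3K27me3 NeuN+ at Dmrta2, a gene of cortical patterning (2.11, SE 1.03). The list does not hold Dmbx1 and Tfap2e, which also encode developmental transcription factors. Besides their Suz12 NeuN+ calls given above, the H3K27me3 NeuN- peak at Dmbx1 rose by 2.29 in Ogg1-/- and 2.49 in DKO, and the Suz12 NeuN- peak at Tfap2e fell by 2.40 in DKO. The list had a median log2 fold change of -0.12 in the Mutyh allele contrast, beside -0.07 over all peaks. Its strongest H3K4me3 NeuN+ peak, at the forkhead gene Foxo6, had means of 35.7 ± 12.3 in WT and 32.4 ± 9.32 in Mutyh-/- (SD, n = 3). Mycl, Foxj3 and Hivep3 followed with WT means of 33.7, 35.2 and 26.0.

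Of 13 neuronal genes, 12 had peaks, 23 in all, and 1 was called in Mutyh-/- (1.99% of all peaks), H3K4me3 NeuN+ at Agbl4, a tubulin-modifying enzyme gene, which fell by 1.03 there (SE 0.474). DKO, which shares the Mutyh allele, had a mean of 32.5 ± 5.37 there, beside 30.4 ± 15.8 in WT and 13.9 ± 5.59 in Mutyh-/- (SD, n = 3). The cytoskeletal gene Macf1, Zswim5, the reelin receptor gene Lrp8 and the phosphatase gene Ptprf had the strongest peaks of the list and were not called. The median of the list was -0.0048 in the Mutyh allele contrast, beside -0.07 over all peaks.

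Of 12 glial, vascular and secreted-factor genes, 8 had peaks, 16 in all, and none was called in these 5 contrasts. In the interaction of the alleles, Edn2, an endothelin gene, had a value of -3.43 in H3K27me3 NeuN- (SE 1.58, adjusted p = 1.00, limma) and was 1 of the 9 members with an unadjusted p under 0.05 there. Slc2a1, the glucose transporter gene of the blood-brain barrier, had H3K4me3 NeuN+ means of 22.7 ± 8.22 in WT and 26.3 ± 10.3 in Mutyh-/- (SD, n = 3). The median of this list in the Mutyh allele contrast was -0.34, beside -0.07 over all peaks. Most of its peaks were of H3K27me3, and the H3K27me3 NeuN- members of the flank had a median of -0.35 in that contrast. Of 10 DNA repair, redox and chromatin genes, 8 had peaks, 10 in all, and none was called in these 5 contrasts. The Argonaute gene Ago4 and the Polycomb gene Scmh1 had the strongest of these peaks, with means of 50.0 ± 7.80 and 42.1 ± 9.54 in WT and of 38.4 ± 14.6 and 34.0 ± 4.74 in Mutyh-/-. Their median was -0.19, beside -0.07 over all peaks.

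The total of reads in the flank did not separate the genotypes that share the Mutyh allele. For H3K4me3 NeuN+, 1.37% ± 0.0944 of the reads in peaks fell in the flank in WT, 1.40% ± 0.0697 in Mutyh-/-, 1.40% ± 0.0157 in Ogg1-/- and 1.36% ± 0.0270 in DKO (SD, n = 3). In each of the 6 tables the range of libraries lacking Mutyh overlapped that of libraries carrying it. For H3K27me3 NeuN- the ranges were 0.118% to 1.48% and 0.210% to 1.09%. Suz12 NeuN- had 3 members, namely both Suz12 NeuN- peaks of the array and the peak at Tfap2e, so its total includes the array signal given above. The shares were 0.0567% to 0.243% in WT and up to 0.135%, 0.0289% and 0.0285% in Mutyh-/-, Ogg1-/- and DKO, so that WT lay above Ogg1-/- and DKO there.

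**Figure D5:**
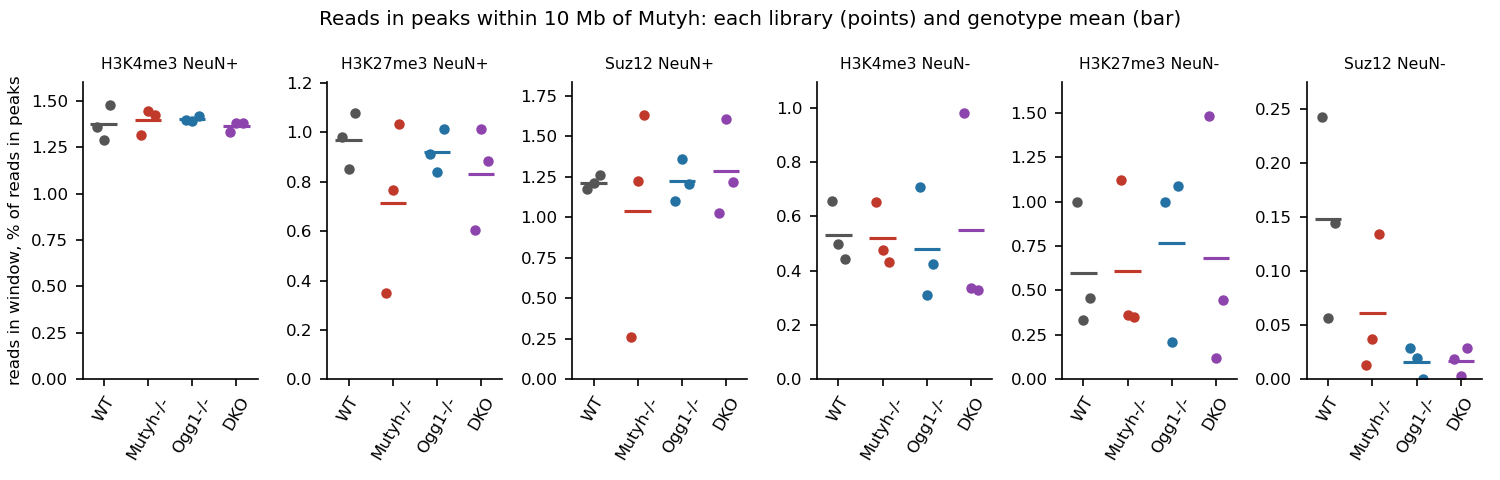
Reads in peaks within 10 Mb of Mutyh as a percentage of all reads in peaks of the library (vertical axis), by table and genotype. Points are libraries and bars genotype means. In H3K4me3 NeuN+ all 12 libraries lie between 1.29% and 1.48%, and in the other tables single libraries spread more widely than the genotype means differ.

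In sequence, the members were much like peaks elsewhere. Promoter peaks made up 74.1% of the members and 75.6% of all peaks, the median GC content was 65.2% and 63.8%, and 2.44% and 3.60% had at least 50% of soft-masked bases. The array peaks stood apart from the other members in their tandem structure, not in GC content, which was 62.8% to 63.1% for the 4 that were called.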

How the data were processed

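Chromatin from sorted nuclei was immunoprecipitated and sequenced as single-end reads. The authors aligned reads to GRCm38 with Bowtie2 2.3.5.1, called enriched regions with epic2 (the submitters' notes name SICER), kept regions found in at least 2 of 3 replicates, counted reads with DiffBind 3.10.1 and annotated peaks with ChIPseeker 1.36. The handling of multiply aligned reads is not given in the sources used here. Values deposited by the authors are signal, each the reads of a peak over a factor of its library. Whole reads were recovered in every library (100% of values within 0.05 of a whole number). The 24 input samples had no column and were not used.

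A count test had been planned for raw counts. As the values are scaled, limma 3.58.1 (R 4.3.3, trend) was fitted to log2(value + 1) over the 12 libraries of a table with genotype as the only term, and adjusted p is the Benjamini-Hochberg value over all peaks of a table. Prior degrees of freedom were infinite in both H3K27me3 and both Suz12 tables, where limma's p thus uses a spread shared by peaks of like signal. Alternatives were pseudocounts of 0.5 and 5, leaving out the lowest 25% of peaks, TMM factors, edgeR 4.0.16 and DESeq2 1.42.0 on recovered reads, robust empirical Bayes, a replicate block and leaving out each library. Leaving out the array peaks was added after seeing the data. The scripts were tested on simulated data.

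Peaks named are those within 500 kb of Mutyh, the lowest p of each table and contrast, members whose groups do not overlap, and up to 4 genes with the highest signal per list. Exceptions are stated. The members and gene lists were chosen with earlier results of these data known. Distance is from peak midpoint to the Mutyh start. Replicate numbers come from the labels. The correlation of same-numbered deviations was over 0.1 for all 3 pairs only in Suz12 NeuN+ for WT and Mutyh-/- (0.39, 0.19 and 0.12).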

Additional observations from a re-analysis of the deposited data

How the results depend on the processing

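The counts of called members moved with the scaling, the test and the filter. Leaving out the lowest 25% of peaks kept 247 members and gave 4, 6 and 5 calls for Mutyh-/-, Ogg1-/- and DKO and 3 for the Mutyh allele contrast. These were 1.619%, 2.429%, 2.024% and 1.215% of the members kept. Over all peaks kept the shares were 1.841%, 1.981%, 1.753% and 1.485%. Members were thus called less often than all peaks for Mutyh-/- and the Mutyh allele contrast under this filter. TMM factors gave 21, 19 and 20 calls, edgeR 20, 18 and 21 and DESeq2 17, 17 and 20 for the 3 knockouts, and 15, 16 and 20 for the Ogg1 allele contrast. The share called over all peaks also rose, to 4.22% for Mutyh-/- with TMM factors. TMM factors moved the median of all peaks by more than 0.1 in 4 of 6 tables for Mutyh-/- and Ogg1-/-, 3 for DKO, 2 for the Ogg1 allele and 1 for the Mutyh allele contrast. Leaving out the array peaks gave 7 calls for the Mutyh allele contrast.

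Leaving out 1 library gave 4 to 16 calls for Mutyh-/- (4 without WT replicate 1, 5 without Mutyh-/- replicate 2, 16 without Mutyh-/- replicate 3), 8 to 16 for Ogg1-/- (16 without Ogg1-/- replicate 2) and 9 to 16 for DKO. It gave 7 to 15 for the Mutyh allele contrast (7 without WT replicate 1 or without Mutyh-/- replicate 2) and 7 to 16 for the Ogg1 allele contrast (16 without Ogg1-/- replicate 2). The count with an adjusted p under 0.05 in the Mutyh allele contrast stayed at 0, and the median absolute log2 fold change within 1 Mb ran from 0.13 to 0.26. Of the 9, 10, 12 and 11 calls of Mutyh-/-, Ogg1-/-, DKO and the Mutyh allele contrast, 1, 1, 3 and 5 were made whichever library was left out. Ift25 lost its Mutyh allele call without Mutyh-/- replicate 2, and the Ogg1-/- call of the Suz12 NeuN- array peak held in 3 of 12 such fits.

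With the replicate block, 14 members were called for Mutyh-/-, 16 for the Ogg1 allele contrast, and 1 had an adjusted p under 0.05 in the Mutyh allele contrast, as with TMM factors, edgeR and DESeq2. In Suz12 NeuN+, where the numbers pair WT and Mutyh-/-, the block left 0 called members. Elsewhere not all 3 correlations of same-numbered deviations were over 0.1, though some were. In H3K27me3 NeuN- they were 0.29, 0.14 and -0.0068 between Mutyh-/- and Ogg1-/-. Between Ogg1-/- and DKO they were 0.27, 0.27 and 0.030. The array peak of H3K27me3 NeuN- had an adjusted p of 0.00682 in the Mutyh allele contrast with the block (limma).

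The H3K27me3 NeuN- peak of the array was lower in libraries lacking Mutyh in 20 of 20 alternatives, with adjusted p from 7.01e-06 to 0.999 and under 0.05 in 4 of them. The H3K4me3 peaks and the first Suz12 NeuN- peak were lower with an unadjusted p under 0.05 in 19 of 19, and Suz12 NeuN+ was lower in 19 of 19 and passed in 1. The low-value filter removed these 4, so it gives no value for them. The second Suz12 NeuN- peak turned to -0.12 with edgeR and -0.034 with DESeq2, and ran from -0.16 to 0.54 with a library left out.

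Some values within 500 kb turned sign, most of them near 0. C530005A16Rik, at -0.61 with all libraries, turned to 0.15 without DKO replicate 1. Rnf220 (H3K27me3) was -0.035, -0.051 and -0.087 with pseudocount 5, edgeR and DESeq2, and Rnf220 (Suz12) 0.058 and 0.078 with pseudocount 0.5 and TMM factors. With edgeR and DESeq2, Ipp was 0.030 and 0.025, Nasp 0.058 and 0.055 and the farther Hpdl peak 0.018 and 0.017. With TMM factors, edgeR and DESeq2, Prdx1 was 0.065, 0.082 and 0.081, Zswim5 0.055, 0.062 and 0.065 and Rnf220 (H3K4me3) 0.058, 0.061 and 0.063. With a library left out, the ranges were -0.60 to 0.48 and -0.56 to 0.47 for Rnf220 (H3K27me3, Suz12), -0.20 to 0.14 for Rnf220 (H3K4me3), -0.30 to 0.10 for Ipp, -0.082 to 0.21 for Gpbp1l1, -1.07 to 0.15 for C530005A16Rik, -0.25 to 0.15 for Nasp, -0.25 to 0.19 for Prdx1, -0.12 to 0.32 for Toe1, -0.45 to 0.042 for Hpdl, -0.15 to 0.073 for Zswim5 and -0.39 to 0.029 for Plk3. In the other values of the 83 peak results, direction and side of the adjusted threshold held, except that the DKO contrast of the H3K27me3 NeuN- array peak also passed with edgeR and DESeq2. The causes were not tested.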
